A study of Mus musculus with 55 samples.

Results

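Chemokines are small secreted proteins that draw migrating cells along a gradient, and the genes described here are their ligands and receptors in mouse liver. Members were chosen by symbol: every Ccl, Cxcl, Ccr or Cxcr gene followed by a number, with Cx3cl1, Cx3cr1, Xcl1, Xcr1 and the atypical receptors Ackr1 to Ackr4. The rule took 60 of the 24478 symbols in the table, from 93 of its 36141 rows, and used no measured value except that the row with the highest mean was kept for each symbol. There were 38 ligands (23 CC, 13 CXC and 2 of the CX3C and XC kinds) and 22 receptors (10 CC, 6 CXC, 2 of the CX3C and XC kinds and 4 atypical). Of the 60, 53 reached 1 FPKM (a level scaled to transcript length and library size) in at least 1 library. Ccl19, Ccl21a, Ccl21b, Ccl27b and Ccl28 were listed at 0 in all libraries, and Ccl26 and Cxcl15 stayed below 1 FPKM. Cxcl11, Cxcl17 and Cxcr1 did not exceed 2.66 FPKM in any library.

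The study measured RNA of 10 populations sorted by FACS from livers of strain C57B/L6, normal or after partial hepatectomy (PH, surgical removal of part of the liver). The populations were clonal biliary epithelial cells (cBEC), biliary epithelial cells (BEC), NPD (labelled as non progenitor ducts), HC (hepatocytes), EC (endothelial cells), liver sinusoidal endothelial cells (LSEC), Kupffer cells (KC, the resident macrophages), blood cells, Thy1 cells and hepatic stellate cells (HSC). In normal liver, HC, BEC and cBEC had 4 libraries, LSEC had 3 and each other population had 2. After PH, LSEC had 5 libraries, HC had 4, HSC, KC and EC had 3, and each other population had 2. The labels give neither age nor time after surgery, nor a sham operation, nor whether libraries of a group came from separate animals, so p-values measure the spread between these libraries.

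Most chemokine receptors are coupled to G proteins and sit on leukocytes, where ligand binding turns the cell toward the source. The atypical receptors bind chemokines without that signal and remove or transport them, which shapes the gradient. In liver, Kupffer cells, endothelium, bile ducts and stellate cells are all known sources of ligands, and leukocytes in the sinusoids carry the receptors.

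Marker lists were checked in each sort: in normal liver the mean log2(FPKM + 1) was 12.99 for the hepatocyte list in HC, 10.65 for the Kupffer list in KC and 10.01 for the sinusoidal list in LSEC. Other lineages were present in several sorts. The sinusoidal list stood at 8.98 in normal KC, the Thy1 list at 7.11 in normal NPD beside the duct list at 7.17, and the Kupffer list at 6.25 in normal blood. Normal Thy1 carried the endothelial list at 7.1, the sinusoidal list at 6.26 and the duct list at 6.22, beside its own list at 7.86. After PH the blood sort carried the Kupffer list at 10.55, above its lymphocyte lists, and PH Thy1 carried the endothelial list at 8.07, above its own list at 6.43. The library PH KC 3 stood apart from PH KC 1 and 2 for Cxcl2, Ccl3, Ccl4 and Cxcr4, and normal HSC 2 carried more Kupffer transcripts than normal HSC 1. Outside HC, many hepatocyte-rich transcripts are listed at exactly 0. This may touch Cxcl1, Cxcl12 and Ccl9, the members at 10 FPKM or more in a hepatocyte group. The sum of FPKM per library ran from 624726 to 1203197, and read depth is unknown.

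Of 51 members tested in normal liver, 50 differed across the 10 populations (moderated F test in limma, adjusted p under 0.05), against 93.3% of all genes tested, and Ccl25, a gut and thymus chemokine, did not. Each population was then set against the mean of the other 9, with a difference of at least 1 on the log2 scale required. Blood cells were higher for 27 of 51 members, where 24.6% of all genes were higher, and KC for 24 of 51, where 11.5% were. Thy1 was higher for 8 (13.5% of all genes), cBEC for 6 (17.3%), LSEC for 6 (8.86%), HSC for 6 (9.01%), EC for 4 (8.27%), BEC for 3 (16.2%), HC for 2 (10.8%) and NPD for 2 (12.8%). Ccl1, Ccl17, Ccl22, Ccr4, Ccr6, Ccr8, Ccr9, Cxcr2 and Xcr1 passed the filter only through blood. Ccl8 and Ccl12 passed it only through KC, and Ccl20 and Cxcl17 only through cBEC. These pairs carry no weight in the counts. The highest ligand means were spread over several sorts. Of the 29 ligands that reached a mean of 1 FPKM in some normal population, 9 were highest in KC, 8 in blood, 4 in cBEC, 3 in Thy1, 2 in HSC and 1 each in BEC, HC and LSEC. For 19 of the 29 the lowest library of the top population exceeded every library of the other normal populations. These were 7 in KC, 6 in blood, 3 in Thy1, 2 in HSC, 1 in HC and 0 in cBEC, BEC and LSEC. No share of all genes was computed for these ligand counts.

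**Figure D1:**
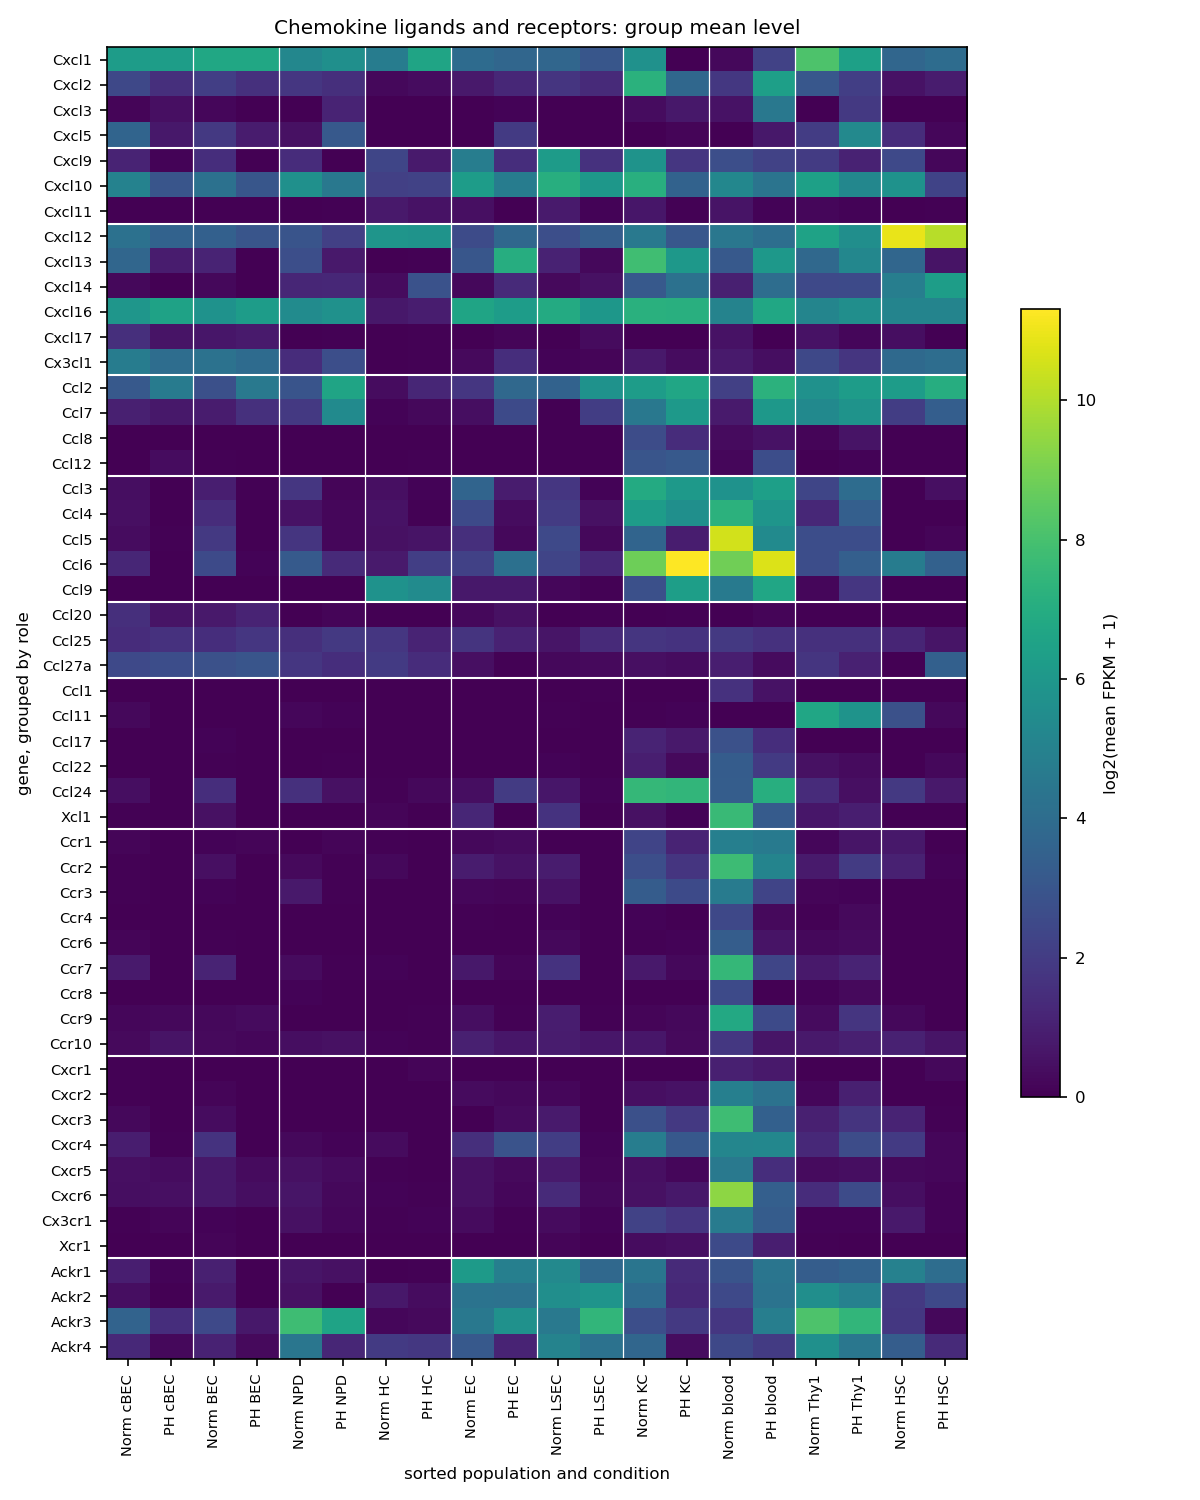
Colour shows log2 of the group mean FPKM plus 1 for 52 of the 53 members that reached 1 FPKM in a library, in rows grouped by role between white lines, across the 20 groups in columns. Receptors other than the atypical ones are bright mainly in normal blood, Cxcl12 in both HSC groups and Ccl6 in the KC and blood groups.

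Cxcl12, the ligand of Cxcr4 that holds blood progenitors and lymphocytes in tissues, was at its highest level in the stellate cell sort. Cxcl12 (chromosome 6, 117118552 to 117125087, mm9, plus strand) was at 1985 and 1930 FPKM in the 2 normal HSC libraries. The next population was Thy1, at 111 and 70.3 FPKM. HC, also called higher than the mean of the others, was at 57.8, 62.5, 63.8 and 50.9 FPKM. The difference of HSC from the other 9 was 6.99 on the log2 scale (SE 0.78, limma adjusted p 3.44e-07), and no other library reached the HSC level. Cxcl14, a ligand with no settled receptor, was also highest there, at 36.9 and 18.6 FPKM (difference 3.77, SE 0.28, limma adjusted p 7.38e-10).

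KC held the eosinophil-attracting Ccl24 at 173 and 199 FPKM, while the highest library of any other normal population was at 11.2 FPKM in blood. This was a difference of 6.39 (SE 0.42, limma adjusted p 1.5e-10). The B cell attractant Cxcl13 was at 170 and 279 FPKM in normal KC, a difference of 5.63 (SE 0.85, limma adjusted p 1.85e-05).

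Cx3cl1, a membrane-bound ligand that captures Cx3cr1 cells, led in cBEC (48.9, 19.1, 14.8 and 20.2 FPKM, difference 3.05, SE 0.21) and BEC (22.8, 17.8, 15.5 and 16.7 FPKM, difference 2.67, SE 0.21). The libraries of cBEC and BEC overlapped, while NPD lay lower, at 0.624 and 2.74 FPKM. Normal HSC, also higher for Cx3cl1, was at 14.1 and 12.8 FPKM, just below the lowest cBEC library. Cxcl5, a neutrophil attractant, was higher in cBEC (23.3, 15.8, 0.40 and 5.83 FPKM, difference 2.39, SE 0.47), with library 3 low. Ccl20, the ligand of Ccr6, was higher in cBEC as well, at 2.20, 1.41, 1.11 and 2.69 FPKM. Hepatocytes led in Ccl9, a Ccr1 ligand, at 66.6, 48.4, 39.3 and 57.8 FPKM (difference 4.83, SE 0.23, limma adjusted p 3.36e-14), and no other normal library overlapped them. Blood came next at 25.1 and 23.6 FPKM. Ccl9 was listed at 0 in all normal cBEC, BEC, NPD and HSC libraries, and the size of the difference rests in part on those zeros.

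Some ligands were high in both LSEC and KC, and others were highest in the Thy1 sort. In LSEC the interferon-induced Cxcl9, a Cxcr3 ligand, was at 107, 87.3 and 26.8 FPKM (difference 3.42, SE 0.44), which overlapped KC at 41.4 and 67.8 FPKM. Cxcl16, the membrane ligand of Cxcr6, was at 156 and 134 FPKM in KC and at 133, 122 and 101 FPKM in LSEC. In Thy1, Ccl11, an eosinophil attractant, was at 38.5 and 164 FPKM (difference 5.98, SE 0.31, limma adjusted p 1.11e-11), with the next population, HSC, at 8.43 and 3.33 FPKM. Cxcl1, a neutrophil attractant, was highest in normal Thy1, at 293 and 279 FPKM. The part of the sinusoidal markers of normal KC and of the duct markers of normal Thy1 in these levels was not tested.

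Receptors were a blood pattern. Of the 18 classical receptors, 17 were highest in blood, and for 15 of these the lowest blood library exceeded every other normal library. No share of all genes was computed for these counts. Ccr4, Ccr6, Ccr8, Cxcr1, Cxcr2 and Xcr1 reached 1 FPKM in no normal library outside blood. Cxcr6, a receptor of liver T and NK cells, was at 594 and 743 FPKM (difference 8.75, SE 0.36, limma adjusted p 8.77e-15). Its ligand Cxcl16 was present at 25.4 FPKM or more in every normal library outside HC. Cxcr3 was at 239 and 199 FPKM and Ccr2, the receptor of Ccl2, at 226 and 208 FPKM in the same libraries. Blood also carried lymphocyte ligands: Ccl5 stood at 1522 and 1423 FPKM (difference 9.07, SE 0.61, limma adjusted p 3.31e-11) and Xcl1, which attracts Xcr1 dendritic cells, at 190.2 and 218 FPKM.

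**Figure D2:**
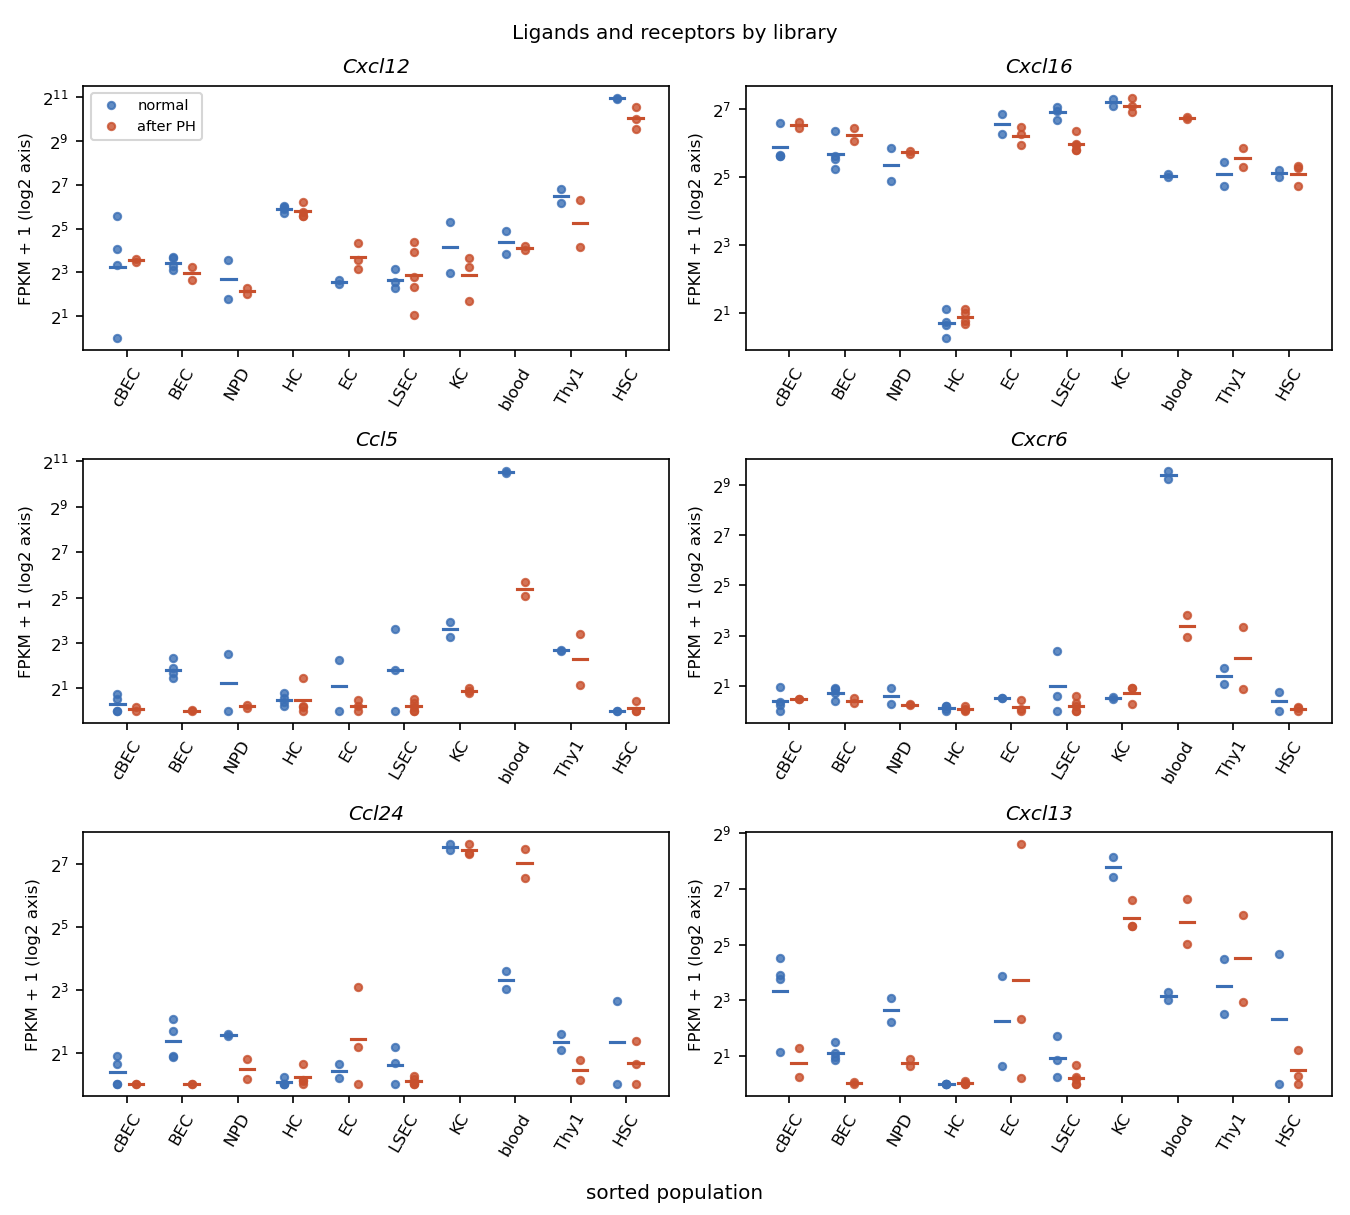
Each point is 1 library, as FPKM plus 1 on a log2 axis, for 10 sorted populations in normal liver (blue) and after PH (orange), with a bar at the mean of log2(FPKM + 1). Cxcl12 is highest in HSC, Cxcr6 and Ccl5 in normal blood, and Ccl24 and Cxcl13 in normal KC, while 1 PH EC library is the highest for Cxcl13. Cxcl16 is spread across sorts other than HC.

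The atypical receptors were not a blood pattern. Ackr1, which carries chemokines across venular endothelium, was highest in EC at 83.6 and 55.7 FPKM (difference 3.55, SE 0.37). Ackr2, a scavenger of inflammatory CC ligands, was at 68.9 and 25.8 FPKM in Thy1 and at 43.1, 40.5 and 57.5 FPKM in LSEC, and the libraries overlapped. Ackr4, a scavenger of Ccl19, Ccl21 and Ccl25, was at 31.2 and 69.9 FPKM in Thy1 and at 29.1, 44.1 and 24.1 FPKM in LSEC, again overlapping. The part of the sinusoidal markers of normal Thy1 in its Ackr2 and Ackr4 levels was not tested. Ackr3, a scavenger of Cxcl12, was at 304 and 259.9 FPKM in Thy1 and at 210.1 and 228 FPKM in NPD, while cBEC lay at 24.6, 5.45, 3.97 and 10.4 FPKM.

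After PH, 43 of 45 members differed across populations (limma F test), against 90.1% of all genes, Ccl25 and Ccr10 being the exceptions. The pairs of member and population that stood above the other 9 numbered 90, against 88 in normal liver. Of the 90, PH blood held 33 and PH Thy1 held 13. Without these groups, whose own pairs then drop out, 48 pairs stood above the mean of the remaining populations. No share of all genes was computed for these totals. After PH, Ccl17, Ccl22, Ccr7, Ccr9, Cxcr5, Cxcr6 and Xcl1 passed the filter only through blood. Ccl11 passed it only through Thy1 and Ccl8 only through KC. Their pairs with those populations carry no weight in the total.

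PH was compared with normal liver within each population. Of 235 pairs tested, 68 passed (limma, Benjamini-Hochberg adjusted p under 0.05 over all genes), 26 higher and 42 lower, and 33 of the 68 came from blood. In blood 14 members rose and 19 fell of 43 tested, where 64% of all genes passed (24.3% rose and 39.7% fell). In KC 3 rose and 12 fell of 31, where 36.8% of all genes passed (16.7% rose and 20.1% fell). In NPD 3 rose and 4 fell of 20, against 15.2% of all genes (9.65% and 5.51%), and in LSEC 3 rose and 3 fell of 16, against 8.46% (4.15% and 4.31%). In BEC 1 rose and 3 fell of 26, against 1.81% of all genes (0.233% and 1.57%), and in HC 2 rose and 1 fell of 9, against 6.19% (1.78% and 4.41%). No member passed in cBEC (18 tested, 0.0681% of all genes), EC (23 tested, 0.0249%), Thy1 (31 tested, 0.00747%) or HSC (18 tested, 0.00853%) with limma, where 3, 8, 4 and 5 had an unadjusted p under 0.05. In every sort, fewer cells of a type and less RNA per cell cannot be told apart.

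Several of these counts rested on single libraries. Without either PH NPD library 0 members passed in NPD, and without normal NPD 2 there were 12. In LSEC there were 3 without normal LSEC 1 or normal LSEC 2, and 11 without normal LSEC 3. In BEC there were 0 without PH BEC 2 and 2 without normal BEC 1 or PH BEC 1. In HC there was 1 without normal HC 1 or without any single PH library, in blood 12 without normal blood 1 and 16 without normal blood 2, and in cBEC 1 without normal cBEC 1 or 3. Where an arm was left with 1 library, that library was assumed to vary like the other group.

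**Figure D3:**
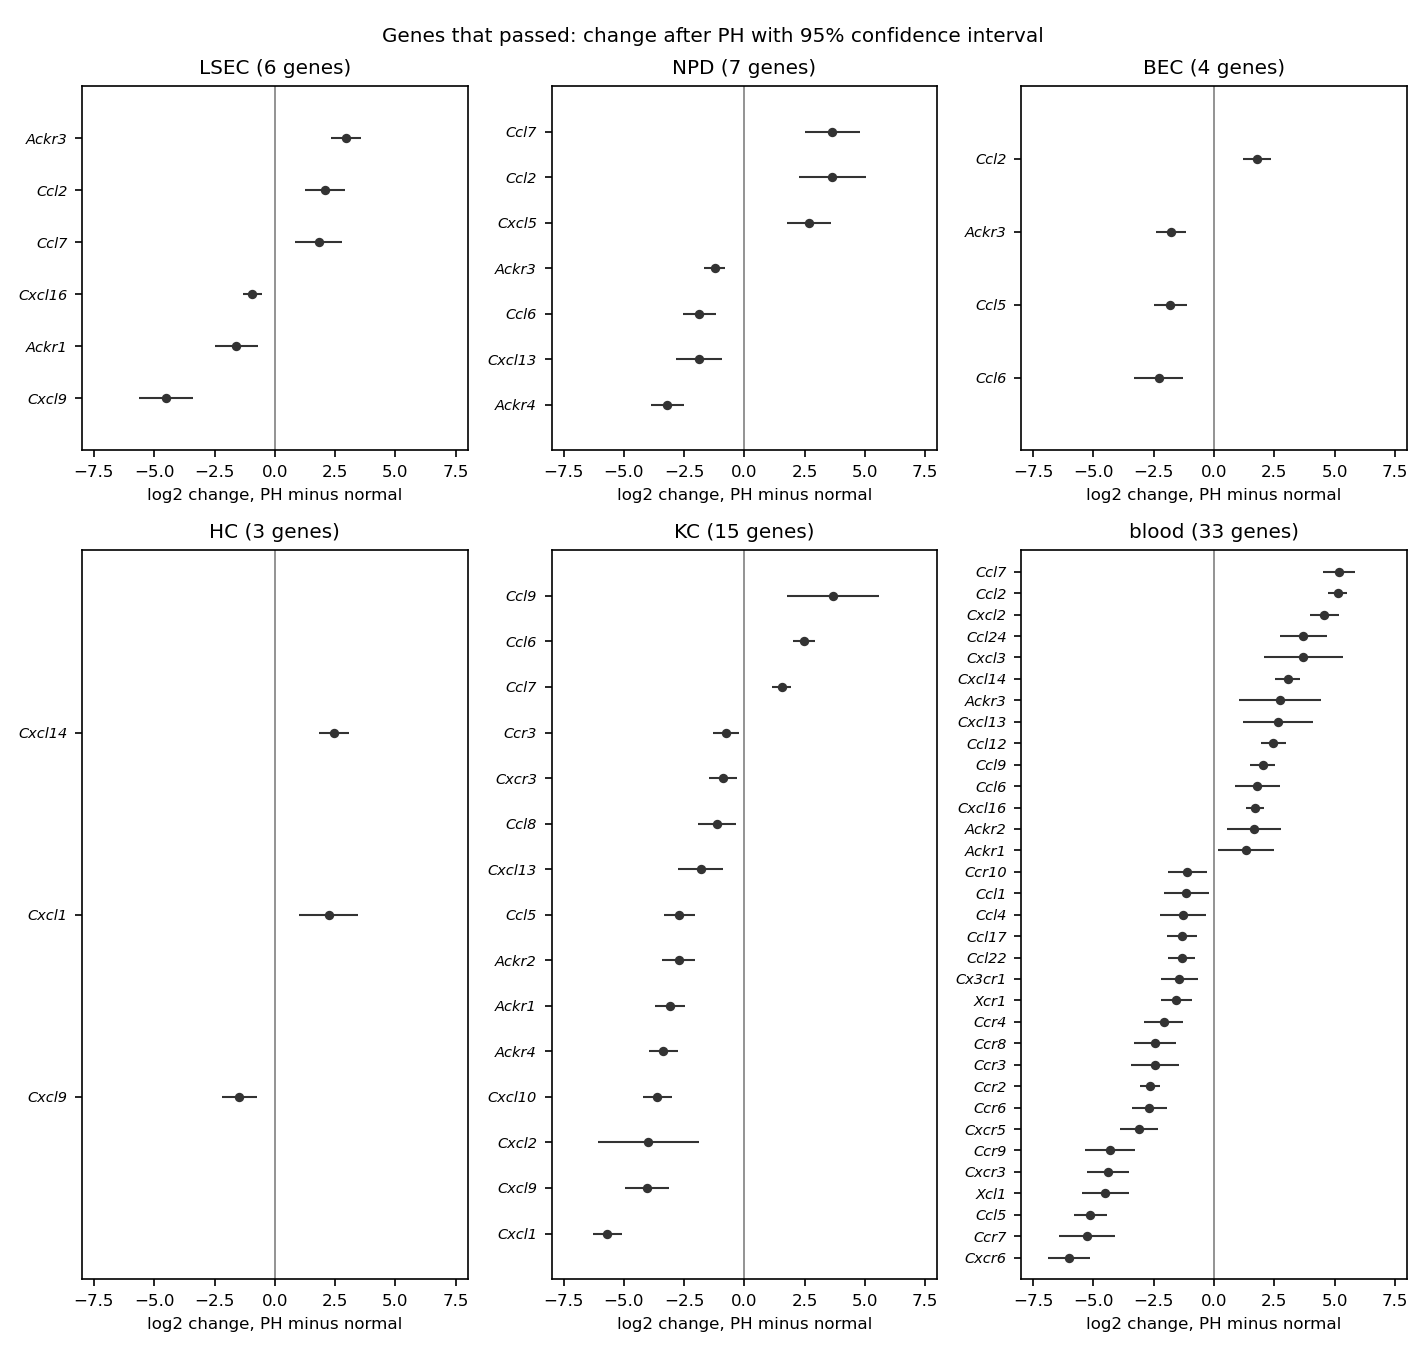
Points give the log2 change after PH (PH minus normal) and bars its 95% confidence interval, for the members that passed in each of 6 populations. Ccl2 or Ccl7 is among the rises of LSEC, NPD, BEC, KC and blood, and the atypical receptors are on both sides of 0.

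The monocyte-attracting ligands Ccl2 and Ccl7, neighbours on chromosome 11 (81849078 to 81861025, mm9), rose in several unlike sorts. In LSEC, Ccl2 was at 13.5, 11.3 and 7.86 FPKM in normal liver and at 74.1, 35.9, 32.0, 91.1 and 32.2 FPKM after PH. The groups did not overlap, and the log2 change was 2.07 (SE 0.37, limma adjusted p 0.0108). In NPD it went from 9.53 and 3.74 FPKM to 137.0 and 56.1 FPKM, a change of 3.65 (SE 0.55, limma adjusted p 0.0192). In BEC it went from 5.13, 7.23, 5.41 and 5.04 FPKM to 16.9 and 28.0 FPKM. This was a change of 1.78 (SE 0.25, limma adjusted p 0.0149), lost without PH BEC 2 (limma adjusted p 0.181).

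Ccl7, which also binds Ccr2, rose in LSEC, NPD, KC and blood. In NPD it went from 4.13 and 1.202 FPKM to 49.9 and 33.8 FPKM (change 3.65, SE 0.45, limma adjusted p 0.0138). In LSEC it was listed at 0, 0.05 and 0 FPKM in normal liver and was at 3.52, 1.91, 1.31, 7.85 and 1.202 FPKM after PH (change 1.82, SE 0.44, limma adjusted p 0.0313), and that call was lost when any 1 normal library or PH LSEC 1 was left out (limma adjusted p 0.0691 to 0.103). In KC it rose from 19.2 and 25.3 FPKM to 65.3, 69.1 and 63.2 FPKM (change 1.54, SE 0.15). Ccl2 in KC was at 67.1 and 83.9 FPKM before and 79.3, 95.9 and 130.1 FPKM after, which overlapped.

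In HSC, Ccl2 was at 12.9 and 135 FPKM in normal liver and at 147, 118 and 130.5 FPKM after PH, and the high normal library is HSC 2. The response of Ccl2 differed between populations (limma F test over 20 groups, adjusted p 0.00112), as did that of Ccl7 (adjusted p 0.000737).

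**Figure D4:**
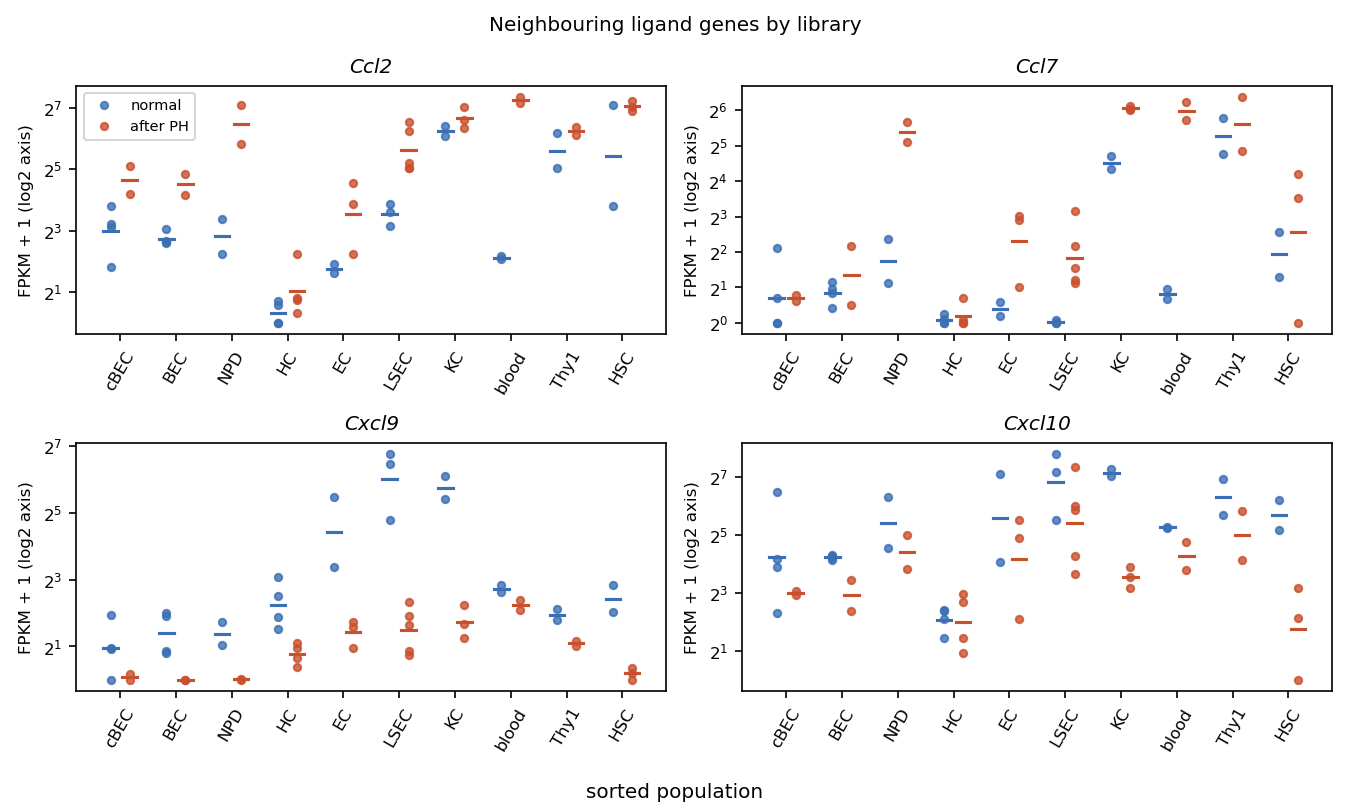
Points are libraries, as FPKM plus 1 on a log2 axis, in 10 sorted populations, blue for normal liver and orange after PH, with bars at the mean of log2(FPKM + 1). Ccl2 and Ccl7 are higher after PH in LSEC, NPD and blood, and Cxcl9 is lower in LSEC, KC and HC, while Cxcl10 spreads widely in LSEC.

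Of the interferon-induced ligands of Cxcr3, Cxcl9 and Cxcl10 fell in KC, and Cxcl9 fell in LSEC and HC as well. Cxcl11, their neighbour, was too low to be tested in any population. Cxcl9 (chromosome 5, 92750356 to 92757105, mm9, minus strand) is described first. In KC it went from 41.4 and 67.8 FPKM to 2.19, 3.75 and 1.36 FPKM, which is -4.04 on the log2 scale (SE 0.36, limma adjusted p 0.00179). The 5 PH LSEC libraries held 2.77, 0.66, 4.06, 0.81 and 2.09 FPKM, all below the lowest normal library at 26.8 FPKM. The change was -4.51 (SE 0.50, limma adjusted p 0.00185) and held without each single library. In HC it fell from 2.66, 4.66, 7.47 and 1.88 FPKM to 0.94, 1.15, 0.31 and 0.59 FPKM, a change of -1.47 (SE 0.33, limma adjusted p 0.0302), lost when any 1 PH library or normal HC 1, 2 or 3 was left out (limma adjusted p 0.0509 to 0.0899).

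Cxcl10 (chromosome 5, 92775664 to 92777915, mm9, minus strand) lies beside it and fell in KC, from 129 and 153 FPKM to 10.7, 13.9 and 7.89 FPKM (change -3.61, SE 0.24, limma adjusted p 0.00138). In LSEC it was at 218, 143 and 44.9 FPKM in normal liver and at 159, 11.5, 56.7, 18.5 and 61.9 FPKM after PH, which overlapped (change -1.41, SE 0.82, limma adjusted p 0.325). The response of Cxcl9 differed between populations (limma F test adjusted p 1.53e-05), and that of Cxcl10 did not pass (adjusted p 0.235). In HSC the changes were -3.91 for Cxcl10 (SE 0.88, limma adjusted p 0.382) and -2.24 for Cxcl9 (SE 0.64, limma adjusted p 0.454), with PH below normal for both. Beside the falls in KC, all 5 genes of the sinusoidal list were above 0 in both groups, and their sum went from 3014 to 4187 FPKM in normal KC to 261 to 460.2 FPKM after PH. Its part in the result was not tested.

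The neutrophil-attracting ligands Cxcl1, Cxcl2 and Cxcl3 bind Cxcr2 and lie in 1 cluster on chromosome 5 (91188323 to 91334964, mm9). Cxcl1 and Cxcl2 both fell in KC, and Cxcl2 and Cxcl3 both rose in blood. Directions thus differed between sorts, and in HC only Cxcl1 of these was tested. Their promoters are shown with those of Cxcl9 and Cxcl10, the other set of neighbours described here. The sequences are the 250 bases before the start of each gene, 5′ to 3′ on the gene's strand, from RefSeq (GRCm38.p6), which held windows for 45 of the 60 members. Capitals mark matches on either strand to a form of the NF-kappaB site (GGGA, any 2 bases, T, any base, CC) and to a form of the interferon-stimulated response element (GAAA, any 2 bases, GAAA).
Cxcl1: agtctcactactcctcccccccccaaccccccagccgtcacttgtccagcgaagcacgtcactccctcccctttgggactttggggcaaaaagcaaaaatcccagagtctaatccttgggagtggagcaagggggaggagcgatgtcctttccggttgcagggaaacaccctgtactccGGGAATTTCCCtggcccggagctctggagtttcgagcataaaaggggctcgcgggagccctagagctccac
Cxcl2: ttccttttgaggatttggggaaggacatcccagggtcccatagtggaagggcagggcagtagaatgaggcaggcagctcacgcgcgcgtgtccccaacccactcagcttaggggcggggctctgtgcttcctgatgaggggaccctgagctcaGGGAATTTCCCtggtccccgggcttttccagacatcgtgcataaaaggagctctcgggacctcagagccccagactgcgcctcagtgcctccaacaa
Cxcl3: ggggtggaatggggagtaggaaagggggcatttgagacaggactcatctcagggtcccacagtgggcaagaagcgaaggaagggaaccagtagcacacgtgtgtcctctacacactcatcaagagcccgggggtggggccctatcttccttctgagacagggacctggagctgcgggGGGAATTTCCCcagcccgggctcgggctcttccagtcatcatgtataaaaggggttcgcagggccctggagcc
Cxcl9: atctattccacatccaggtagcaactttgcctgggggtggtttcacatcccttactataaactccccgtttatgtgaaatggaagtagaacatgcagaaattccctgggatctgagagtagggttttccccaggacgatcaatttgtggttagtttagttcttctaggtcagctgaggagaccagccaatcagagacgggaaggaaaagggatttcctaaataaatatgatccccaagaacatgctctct
Cxcl10: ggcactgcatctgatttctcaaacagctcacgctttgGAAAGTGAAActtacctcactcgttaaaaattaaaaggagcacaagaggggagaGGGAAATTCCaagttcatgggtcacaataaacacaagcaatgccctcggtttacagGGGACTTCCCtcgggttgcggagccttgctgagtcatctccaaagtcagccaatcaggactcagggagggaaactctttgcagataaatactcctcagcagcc

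The windows of Cxcl1 (chr5:90890995-90891244), Cxcl2 (chr5:90903649-90903898) and Cxcl3 (chr5:90785851-90786100), all on the plus strand, hold the same GGGAATTTCC, with overlapping matches on both strands. Its first base lies at -71, -97 and -73 from the start. Cxcl10 (chr5:92348890-92349139, minus strand) has kappaB matches from -159 and -103 and a response element from -213, and Cxcl9 (chr5:92328080-92328329, minus strand) has no match in this window. Of 32851 windows, 3.33% hold the kappaB letters and 2.98% the response element, against 7 and 3 of the 45 members (15.6% and 6.67%). Identity over aligned columns was 52% for Cxcl1 and Cxcl2, 58.7% for Cxcl2 and Cxcl3 and 51.5% for Cxcl9 and Cxcl10. A match describes letters and was not tested as a site.

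In HC, Cxcl1 rose from 9.22, 47.7, 37.95 and 7.84 FPKM to 67.6, 121, 90.9 and 108 FPKM, a change of 2.23 (SE 0.54, limma adjusted p 0.0397). The groups did not overlap, and the call was lost when any 1 PH library or normal HC 1 or 4 was left out (limma adjusted p 0.0589 to 0.109). In KC, Cxcl1 was at 63.4 and 40.05 FPKM in normal liver and listed at 0 in all 3 PH libraries. Many hepatocyte-abundant transcripts are listed at exactly 0 outside HC, while Cxcl1 was above 0 in 51 of the 55 libraries. The origin of its zeros in KC was not tested. Cxcl2 in KC fell from 161 and 132 FPKM to 4.31, 3.90 and 30.2 FPKM, with PH KC 3 the high one (change -3.98, SE 0.84, limma adjusted p 0.0177). That call was lost without normal KC 1 (change -3.83) or normal KC 2 (change -4.12). In blood, Cxcl2 rose instead, from 1.97 and 3.19 FPKM to 89.0 and 77.1 FPKM (change 4.57, SE 0.23, limma adjusted p 0.000766).

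Cxcl3 rose in blood from 0.404 and 0.569 FPKM to 9.26 and 35.5 FPKM (change 3.70, SE 0.62, limma adjusted p 0.00678). That call was lost without normal blood 1 (change 3.62) or normal blood 2 (change 3.78). Cxcl5 rose in NPD, from 0.841 and 0.0311 FPKM to 7.62 and 7.99 FPKM (change 2.67, SE 0.36, limma adjusted p 0.0166). In Thy1, Cxcl5 went from 2.38 and 3.58 FPKM to 62.1 and 16.1 FPKM without passing (change 3.06, SE 0.64, limma adjusted p 0.158), and Cxcl1 from 293 and 279 FPKM to 126 and 43.7 FPKM (change -1.93, SE 0.54, limma adjusted p 0.201). The receptor Cxcr2 stayed in the blood sort, at 31.2 and 25.3 FPKM before and 21.9 and 14.7 FPKM after PH.

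Among the remaining ligands, Ccl6 and Ccl9, which act through Ccr1, rose in KC. Ccl6 went from 437 and 464 FPKM to 2219, 2251 and 3112 FPKM, a change of 2.47 (SE 0.18, limma adjusted p 0.00139), and was the most abundant chemokine of PH KC, with 75.8% of the summed ligand FPKM there. Ccl9 in KC went from 1.804 and 9.78 FPKM to 44.2, 48.4 and 149 FPKM, a change of 3.66 (SE 0.76, limma adjusted p 0.0168), lost without normal KC 1 (limma adjusted p 0.115). Beside these rises and that of Ccl7, the 7 Kupffer markers, all above 0, summed to 15430 to 17090 FPKM in normal KC and 31490 to 32540 FPKM after PH, and their part in the rises was not tested. In BEC, Ccl6 fell from 2.52, 6.56, 7.85 and 2.19 FPKM to 0.0512 and 0.103 FPKM (change -2.28, SE 0.44, limma adjusted p 0.0455), and Ccl5 from 1.75, 4.02, 2.69 and 2.16 FPKM to 0.0205 and 0 FPKM (change -1.82, SE 0.30, limma adjusted p 0.0254). Neither passed when PH BEC 1 or PH BEC 2 was left out, nor Ccl6 without normal BEC 1 or 2 (limma adjusted p 0.0577 to 0.328 over both).

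Ccl6 also fell in NPD, from 8.05 and 8.50 FPKM to 1.195 and 1.92 FPKM (change -1.87, SE 0.27, limma adjusted p 0.0172), as did Cxcl13, from 7.48 and 3.69 FPKM to 0.846 and 0.585 FPKM (change -1.88, SE 0.38, limma adjusted p 0.0346). All 7 Kupffer markers were above 0 in normal BEC and in NPD, and in PH BEC 6 of 7 were in at least 1 library, with Timd4 at 0. Their sum went from 144 to 396 FPKM in normal BEC to 43.9 to 50.6 FPKM after PH, and from 148 to 304 FPKM in normal NPD to 21.1 to 30.3 FPKM. The NK cell list in BEC went from 1.55 to 2.61 FPKM, with 5 of 5 markers above 0, to 0 to 0.0638 FPKM, with Ncr1, Klrb1c, Gzma and Eomes at 0. The part of these cells in the falls was not tested.

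Cxcl14 rose in HC, from 0.04, 0.51, 0.36 and 0.19 FPKM to 5.47, 3.28, 7.52 and 8.73 FPKM (change 2.45, SE 0.27, limma adjusted p 0.00086). It was the one hepatocyte call that held without each single library. Stellate cells stayed far higher, at 32.8, 178 and 23.3 FPKM after PH. Cxcl12 in HSC was at 1486, 745 and 1034 FPKM after PH, below both normal libraries, and did not pass (change -0.90, SE 0.33, limma adjusted p 0.518). It remained highest in HSC, with the next population, HC, at 52.7, 73.5, 47.2 and 46.8 FPKM. Cxcl16 fell in LSEC from 133, 122 and 101 FPKM to 54.9, 62.1, 80.4, 54.8 and 59.7 FPKM (change -0.93, SE 0.17, limma adjusted p 0.012), a call lost without normal LSEC 1 or 2 (limma adjusted p 0.0641 and 0.0511).

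Among the atypical receptors, Ackr3 rose in LSEC and fell in NPD and BEC. In LSEC, Ackr3 (chromosome 1, 92100554 to 92112297, mm9, plus strand) was at 17.2, 14.9 and 36.3 FPKM in normal liver and at 215, 153, 132, 205 and 164 FPKM after PH. The groups did not overlap, the log2 change was 2.96 (SE 0.28, limma adjusted p 0.00123), and the call held without each single library. In NPD it fell from 210.1 and 228 FPKM to 90.5 and 93.8 FPKM (change -1.24, SE 0.17, limma adjusted p 0.0163). In BEC it fell from 4.84, 3.90, 5.79 and 3.91 FPKM to 0.989 and 0.312 FPKM (change -1.78, SE 0.27, limma adjusted p 0.0194), lost without either PH library or normal BEC 1 (limma adjusted p 0.0578 to 0.215). Beside the NPD fall, and that of Ackr4 there, the Thy1 list (6 of 6 above 0) summed to 3998 to 4285 FPKM in normal NPD and 2666 to 3062 FPKM after PH, and the stellate list (6 of 6) to 2941 to 3463 and 1117 to 1200.0 FPKM. Beside the BEC fall, the endothelial list (6 of 6) summed to 25.4 to 101 FPKM in normal BEC and 0.828 to 1.37 FPKM after PH. The part of these cells in the falls was not tested.

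In EC, Ackr3 was at 24.8 and 19.4 FPKM and then 74.9, 44.6 and 35.9 FPKM, which did not pass (change 1.13, SE 0.32, limma adjusted p 0.299). The difference of the Ackr3 response between populations passed the limma F test (adjusted p 7.76e-09). Beside the LSEC rise, the sinusoidal marker list, with all 5 genes above 0, summed to 4461 to 8956 FPKM in normal LSEC and 1313 to 4969 FPKM after PH, and the endothelial list, with all 6 above 0, to 2788 to 3066 and 2671 to 3525 FPKM. The same sums stand beside the falls of Cxcl9, Cxcl16 and Ackr1 in LSEC, and their part in these changes was not tested.

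**Figure D5:**
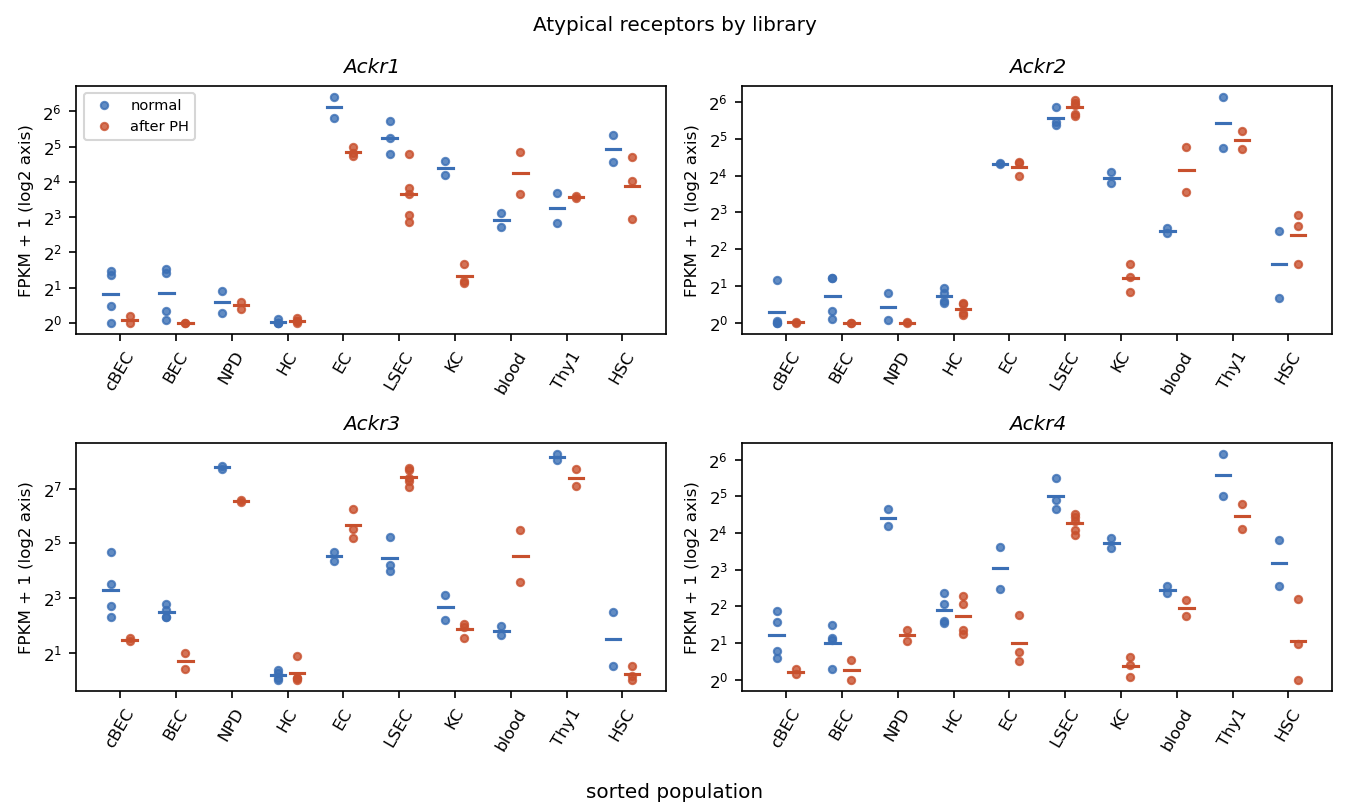
Each point is 1 library, as FPKM plus 1 on a log2 axis, for the 4 atypical receptors in 10 sorted populations, blue for normal liver and orange after PH, with bars at the mean of log2(FPKM + 1). Ackr3 is higher after PH in LSEC and lower in NPD and BEC, and Ackr4 is lower in NPD and KC.

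Ackr4 fell in NPD, from 24.0 and 17.1 FPKM to 1.58 and 1.09 FPKM (change -3.20, SE 0.27, limma adjusted p 0.00871), and in KC, from 13.7 and 11.0 FPKM to 0.535, 0.318 and 0.0548 FPKM (change -3.37, SE 0.24, limma adjusted p 0.00139). In LSEC it did not pass, at 29.1, 44.1 and 24.1 FPKM before and 21.9, 14.5, 18.9, 15.8 and 20.9 FPKM after (change -0.76, SE 0.22, limma adjusted p 0.057). Ackr1 fell in LSEC, from 51.5, 37.0 and 26.8 FPKM to 11.7, 13.3, 26.7, 6.34 and 7.36 FPKM, with PH LSEC 3 nearly as high as normal LSEC 3 (change -1.61, SE 0.40, limma adjusted p 0.0373). That call was lost without any 1 of 6 libraries (limma adjusted p 0.0577 to 0.147). In KC, Ackr1 changed by -3.07 (SE 0.25) and Ackr2 by -2.72 (SE 0.28), the former from 17.4 and 23.1 FPKM to 1.19, 1.26 and 2.16 FPKM. The 6 endothelial markers, all above 0, summed to 1091 to 1374 FPKM in normal KC and 283 to 511 FPKM after PH, and their part in the falls was not tested. Ackr2 in LSEC was at 61.3, 59.6, 50.5, 65.4 and 48.5 FPKM after PH and overlapped normal liver.

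In the blood sort the leukocyte receptors fell. Of 10 CC receptors tested, 8 fell and 0 rose, and of 7 CXC, CX3C and XC receptors tested 5 fell and 0 rose. Of all genes 39.7% fell and 24.3% rose, with a median change of -0.31 (-0.15 after quantile normalization, -0.32 after upper-quartile scaling). Within this sort Ccr4, Ccr6, Ccr8 and Ccr10 reached 1 FPKM in the normal libraries only. They entered the test through the group where they were high, so their falls carry no weight in the count. Cxcr6 fell from 594 and 743 FPKM to 6.65 and 12.97 FPKM (change -6.01, SE 0.33, limma adjusted p 0.000818). Ccr7, which guides cells to lymph nodes, fell from 158 and 205.0 FPKM to 2.08 and 6.23 FPKM (change -5.26, SE 0.44, limma adjusted p 0.00132). Ccl5 fell from 1522 and 1423 FPKM to 32.9 and 51.1 FPKM (change -5.13, SE 0.25, limma adjusted p 0.000766). Ccr1, Cxcr2 and Cxcr4 did not pass.

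Other receptors of the blood sort moved by smaller amounts. Ccr9, a gut-homing receptor, fell from 139 and 87.0 FPKM to 3.03 and 6.69 FPKM (change -4.32, SE 0.40, limma adjusted p 0.0016), and Ccr2 from 226 and 208 FPKM to 31.3 and 36.2 FPKM (change -2.65, SE 0.16, limma adjusted p 0.000818). Cxcr5, the B cell receptor of Cxcl13, fell from 24.9 and 20.8 FPKM to 1.10 and 2.50 FPKM (change -3.13), Ccr3, the eosinophil receptor of Ccl24, from 24.1 and 26.0 FPKM to 2.27 and 5.82 FPKM (change -2.46), and Ccr6 from 11.0 and 7.04 FPKM to 0.391 and 0.673 FPKM (change -2.68). Xcr1 changed by -1.56, Cx3cr1 by -1.44, Ccr8 by -2.45, Ccr4 by -2.09 and Ccr10 by -1.12, all calls with separate libraries. Cxcr4 was at 28.1 and 43.2 FPKM before and 38.0 and 34.7 FPKM after PH, which overlapped (change 0.06, SE 0.24, limma adjusted p 0.849). In KC, Ccl24 was at 173 and 199 FPKM before and 159.8, 163 and 198 FPKM after (change -0.10, SE 0.14, limma adjusted p 0.602). The dendritic cell ligands Ccl17 and Ccl22 fell in blood by 1.33 and 1.35 on the log2 scale, with Ccl1 and Ccl4. In KC, Cxcl13, Ccl5, Ccl8, Cxcr3 and Ccr3 also fell, by 0.78 to 2.71 on the log2 scale. All of these calls but that of Ccl5 were lost when some single libraries were left out.

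Ligands and atypical receptors abundant in other liver sorts rose in the same libraries. Ccl7 went from 0.585 and 0.944 FPKM to 51.8 and 75.1 FPKM (change 5.18, SE 0.25) and Ccl2 from 3.23 and 3.51 FPKM to 142 and 162 FPKM (change 5.13, SE 0.15), both with a limma adjusted p of 0.000766. Ccl24 went from 7.25 and 11.2 FPKM to 94.5 and 178 FPKM (change 3.70, SE 0.37, limma adjusted p 0.00188). Ackr3, Ackr2 and Ackr1 rose by 2.73, 1.66 and 1.33 and Cxcl14, Cxcl13, Ccl12, Ccl9, Ccl6 and Cxcl16 by 1.70 to 3.05 on the log2 scale. The calls of Ackr1, Ackr2, Ackr3, Cxcl13, Ccl9 and Ccl6 were lost without either normal blood library, and those of Ccl24 and Ccl12 without normal blood 1. Ackr1 was also lost without PH blood 1. All markers of the 5 lists that follow were above 0 in both groups. The 6 endothelial markers summed to 243 to 257 FPKM in normal blood and 822 to 1589 FPKM after PH, and the 5 sinusoidal markers to 672 to 774 and 2255 to 5160.0 FPKM. The 7 Kupffer markers summed to 679 to 993 FPKM in normal blood and 11290 to 19670 FPKM after PH, the 6 T cell markers to 1495 to 1720.0 and 34.6 to 65.9 FPKM, and the 5 NK cell markers to 1426 to 1580.0 and 21.6 to 42.7 FPKM. Their part in these changes was not tested.

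Some values from the sorts without a call follow. In EC, Ackr1 was at 83.6 and 55.7 FPKM before and 27.4, 25.7 and 30.9 FPKM after PH (change -1.26, SE 0.23, limma adjusted p 0.194), and Cxcl9 at 43.5 and 9.35 FPKM before and 2.35, 0.94 and 1.99 FPKM after (limma adjusted p 0.203), each with the groups apart. Cxcl13 in PH EC was at 0.161 and 3.99 FPKM in 2 libraries and 387 FPKM in PH EC 3. In cBEC the log2 difference was 1.65 for Ccl2 (SE 0.54, limma adjusted p 0.427) and -1.83 for Ackr3 (SE 0.62, limma adjusted p 0.431), both with the groups apart. It was -2.55 for Cxcl13 (SE 0.95, limma adjusted p 0.472) and -2.28 for Cxcl5 (SE 1.13, limma adjusted p 0.537), whose libraries overlapped. Ackr4 in EC differed by -2.03 (SE 0.51, limma adjusted p 0.268), with the groups apart. The keratinocyte ligand Ccl27a in HSC was listed at 0 in 4 of 5 libraries and at 30.1 FPKM in PH HSC 2.

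Of 52 members, 37 responded to PH differently between populations (limma F test of 9 interaction terms, adjusted p under 0.05), where 47.8% of all genes did. Without the blood population 16 members did, and no share of all genes was computed for that fit. Genes that carry the signal of chemokine receptors (a list of 28, with G protein subunits, receptor kinases, arrestins and Rac activators) were also counted. In blood 9 rose and 10 fell of 28 tested, where 64% of all genes passed. In KC 4 rose and 5 fell of 27 (36.8% of all genes), and in NPD 2 rose and 2 fell of 19 (15.2%). In LSEC 2 rose and 2 fell of 15 (8.46% of all genes), in BEC 0 rose and 3 fell of 21 (1.81%) and in HC 0 rose and 1 fell of 11 (6.19%). In blood, KC, NPD and HC these counts are near the share of all genes. Rac2 and Rgs1, genes known from leukocytes, were among the falls in BEC. Median changes of the list were -0.22 in blood, -0.14 in KC and 0.13 in LSEC, beside medians of all genes of -0.31, -0.04 and -0.03.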

How the data were processed

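RNA sequencing of 55 libraries was deposited as 1 table of FPKM, the unit the authors gave in its name; its column headers give none. CASAVA 1.8.2, Bowtie 1.0.0 and the mouse build mm9 are named in the submitters' processing notes; the counting tool is not given in the sources used here. All 55 sample columns matched a title, and 0 others were left. Groups follow the titles; 1 library, PH cBEC 1 by its title, has normal as its treatment tag and stayed with its title. Where a symbol had several rows, the one with the highest mean was used.

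Values were analysed as log2(FPKM + 1) with limma 3.58.1 in R 4.3.3 (trended, robust moderated variances, two-sided, Benjamini-Hochberg over all genes tested, threshold 0.05). Changes of low genes are understated on this scale. Genes needed at least 1 FPKM in as many libraries as the smaller group. PH was compared with normal liver in the libraries of each population, and populations in all libraries of a condition. The fits were tested on simulated data.

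Named genes were up to 3 rises and 3 falls per population with a change of at least 1 and no overlap of libraries, the 3 most enriched per normal population, fixed ligand and receptor pairs, and the atypical receptors. Cxcl14 in HSC, Cxcl13 in EC, Ccl27a in HSC, Cxcl16 in LSEC, Ackr1 in LSEC, Cxcl3, Cxcl13 and Ccl12 in blood, and the values of sorts without calls were chosen after they were seen. Members, lists and rules were chosen with earlier results of these data known. FPKM give no depth, so no counting intervals are given. Paralogs may share reads. The values of 2 genes are not reported here. Alternatives were a pseudocount of 0.1, no filter, quantile and upper-quartile scaling, the mean over rows, a single fit of all groups, genes under 10 FPKM in hepatocytes, a replicate block and leaving out each library. Leaving out the PH blood and PH Thy1 groups, or blood, was chosen after seeing the data. Promoters are from RefSeq GRCm38.p6, whose coordinates differ from the table's mm9. Figures used Python and matplotlib.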

Additional observations from a re-analysis of the deposited data

Results flagged for a closer look

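Of 70 sets of 4 or 5 libraries of a group checked for 1 extreme library, 2 had one, and chance flags about 1 in 20 such sets (3.5 here). Ccl4 was at 0.253 FPKM in normal BEC 4, with the other 3 libraries at 1.93 to 2.35 FPKM. Cxcl16 was at 95.9 FPKM in normal cBEC 1, with the other 3 at 47.7 to 49.0 FPKM.

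The response to PH differed between populations for 37 members by the F test of limma. Among them, 7 passed in opposite directions in different sorts, and the adjusted p of that F test follows for each. Ackr3 rose in LSEC and blood and fell in BEC and NPD (7.76e-09). Ackr2 rose in blood and fell in KC (4.4e-05). Ackr1 rose in blood and fell in LSEC and KC (7.49e-05). Cxcl16 rose in blood and fell in LSEC (0.000198), Cxcl2 rose in blood and fell in KC (0.000276), and Cxcl1 rose in HC and fell in KC (0.000536), where it is listed at 0 in all PH libraries. Ccl6 rose in blood and KC and fell in BEC and NPD (0.00945). Cxcl13 rose in blood and fell in NPD and KC, and its F test did not pass (0.183). Many of these calls were lost when some single libraries were left out. These were Ackr1, Ackr2, Ackr3, Ccl6 and Cxcl13 in blood, Cxcl2 and Cxcl13 in KC, and Ackr1 and Cxcl16 in LSEC. The calls in BEC and NPD and that of Cxcl1 in HC were lost as well. Cxcl1 in KC, Ackr3 and Ccl6 in BEC and Cxcl13 in NPD lay below 1 FPKM in every PH library.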

How the results depend on the processing

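The direction of no result reversed under the alternatives run. Of the 68 member and population pairs that passed, 68 passed with the mean over rows, 67 with a pseudocount of 0.1, 66 with upper-quartile scaling, 61 with quantile normalization, 54 in a single fit of all groups and 50 with no filter, and 63 of 64 among genes under 10 FPKM in hepatocytes. Counts of members moved most in BEC (4 calls), to 11 with the pseudocount of 0.1, 1 with no filter, 2 with quantile normalization (1 rise and 1 fall, 50% higher against 25%), 7 among genes under 10 FPKM in hepatocytes and 1 in a single fit of all groups. HC (3 calls) had 1 with no filter and 1 among genes under 10 FPKM in hepatocytes. A single fit of all 20 groups gave 4 in HSC, 3 in Thy1, 3 in EC and 4 in cBEC (0 each otherwise) and 10 in LSEC (6 otherwise). The causes were not tested.

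Leaving out each library in turn gave 0 to 1 in cBEC, 0 to 5 in BEC, 1 to 2 in HC, 0 to 12 in NPD, 0 in EC, Thy1 and HSC, 3 to 11 in LSEC, 12 to 34 in blood and 10 to 21 in KC (21 without PH KC 3). Members differing across populations were 49 to 52 in normal liver and 42 to 46 after PH, pairs above the other 9 were 82 to 90 and 82 to 94, and members with a response that depended on the population 35 to 40. Without the PH blood and PH Thy1 groups, whose own pairs then drop out, 48 pairs stood out after PH. Without blood 16 members differed in response, and both settings were chosen after seeing the data. No share of all genes was computed for either setting.

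Same-numbered libraries of PH and normal groups did not deviate together: the correlations of their deviations were -0.67 to 0.57 in HC, -0.24 to -0.02 in LSEC and -0.16 to 0.13 elsewhere, so the numbers were not taken to pair them. With the number as a replicate block there was 1 call in cBEC, 10 in BEC, 0 in LSEC and 1 in Thy1, and 60 of the 68 pairs passed. Quantile normalization moved the median change of all genes from -0.11 to 0.05 in cBEC, -0.12 to 0.02 in BEC, -0.04 to 0.09 in KC, 0.09 to -0.01 in NPD and -0.06 to 0.04 in Thy1, and upper-quartile scaling from 0.02 to -0.08 in EC. Depth is unknown, so values near 0 carry no stated precision.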
